A study of Homo sapiens with 9 samples.

Results

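MT-CO1, MT-CO2, MT-CO3, MT-ATP6, MT-ATP8 and MT-CYB are the mRNAs that human mitochondrial DNA encodes for respiratory complexes III, IV and V. They were taken by symbol from the deposited count table, make up 6 of its 19969 genes, and all 6 passed the low-count filter in both fits used here. RNA depleted of ribosomal RNA was sequenced from HEK293T, a human embryonic kidney cell line. Libraries came from cells labelled FHY1-M3 with an ACTB guide RNA (sgRNA), FHY1-M3 with a con sgRNA and FHY1-M3 with a non-target sgRNA, with 2 libraries per guide, and 3 more libraries were labelled input. The series title concerns editing of RNA N6-methyladenosine (m6A) under red and far-red light, and FHY1 is known from Arabidopsis as a partner of the light receptor phytochrome A. The labels give neither the light that a culture received, nor what M3 is, nor whether the cells behind the input libraries carried the construct. The protocol speaks of input, supernatant and immunoprecipitated RNA without tying a fraction to the sgRNA libraries. The con columns of the table are named con_ACTB_sgRNA where the titles have con_sgRNA, so the make-up of that group is uncertain. No label says that replicates were grown as separate cultures. The p-values below therefore rest on library-to-library spread that may be technical only.

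Oxidative phosphorylation runs on protein complexes in the inner mitochondrial membrane, most of which mix subunits encoded in mitochondrial DNA with subunits encoded in the nucleus. Complex III passes electrons to cytochrome c, complex IV (cytochrome c oxidase) passes them to oxygen, and complex V (ATP synthase) makes ATP from the proton gradient. Mitochondrial mRNAs are cut from long precursor transcripts that span the genome, and their steady levels then depend on how stable each mRNA is.

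On the mitochondrial chromosome (MT, GRCh38.p14, 1-based, from RefSeq), MT-CO1 lies at 5904 to 7445, MT-CO2 at 7586 to 8269, MT-ATP8 at 8366 to 8572, MT-ATP6 at 8527 to 9207, MT-CO3 at 9207 to 9990 and MT-CYB at 14747 to 15887. These genes have no introns. MT-ATP8 and MT-ATP6 are carried on a shared mRNA and overlap over 46 bases, which is 22.2% of the length of MT-ATP8. Counts are per gene, and each gene is called an mRNA throughout. MT-ATP8 and MT-ATP6 are thus counts from the same mRNA and not separate observations. The end of MT-ATP6 and the start of MT-CO3 share 1 base. RefSeq lists 219 nuclear pseudogenes of these 6 genes, from 4 for MT-ATP8 to 58 for MT-CO1, among them copies on chromosome 1 such as MTCO1P12, MTCO2P12 and MTATP6P1. How the authors' counting treated reads that match such copies, or the overlap of MT-ATP8 and MT-ATP6, is not given in the sources used here, so the counts of these genes are uncertain to that extent.

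The sgRNA libraries held between 2900021 and 3802681 counts each and the input libraries between 350413 and 643954, and the median total was 9.29 times as high in the sgRNA libraries. Values are CPM, counts per 1e6 library counts, after TMM scaling of all 9 libraries, and a gene was called at an adjusted p under 0.05. For marker genes CPM are per library total without TMM scaling. The 7 HEK293T markers checked (VIM, KRT8, KRT18, NEFM, NEFL, INA and PAX2) summed to 1086 to 1215 CPM in FHY1-M3 libraries and 1019 to 1246 CPM in input libraries, with INA at 0 in some input libraries. Of 7 markers of other cell types, PTPRC, CD3E and COL1A2 were at 0 counts in all libraries, and the 7 together summed to 0.280 to 4.83 CPM in FHY1-M3 libraries and 0 to 6.21 CPM in input libraries.

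All 6 mRNAs were lower in the FHY1-M3 libraries than in input, by between 7.88-fold for MT-CO2 and 55.4-fold for MT-ATP8. In each case the highest FHY1-M3 library lay below the lowest input library. The share of all genes with such an order was not counted. The 6 mRNAs together took 0.386% ± 0.0304 of all counts in FHY1-M3 libraries (SD, n = 6; range 0.354% to 0.442%) and 4.12% ± 0.0832 in input libraries (SD, n = 3; 4.21%, 4.04% and 4.12%). Of 13411 genes tested, 20.0% were called in this fit and 8.60% were called lower, and of these mRNAs 6 of 6 were called lower. The median log2 fold change was -3.63 over the 6 mRNAs and 0.04 over all genes tested. In bulk RNA, fewer mitochondria or cells that carry a transcript and less transcript in each cannot be told apart. The FHY1-M3 and input libraries also differ in depth and perhaps in the RNA fraction sequenced, and with the groups so laid out these cannot be told apart from the construct.

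**Figure D1:**
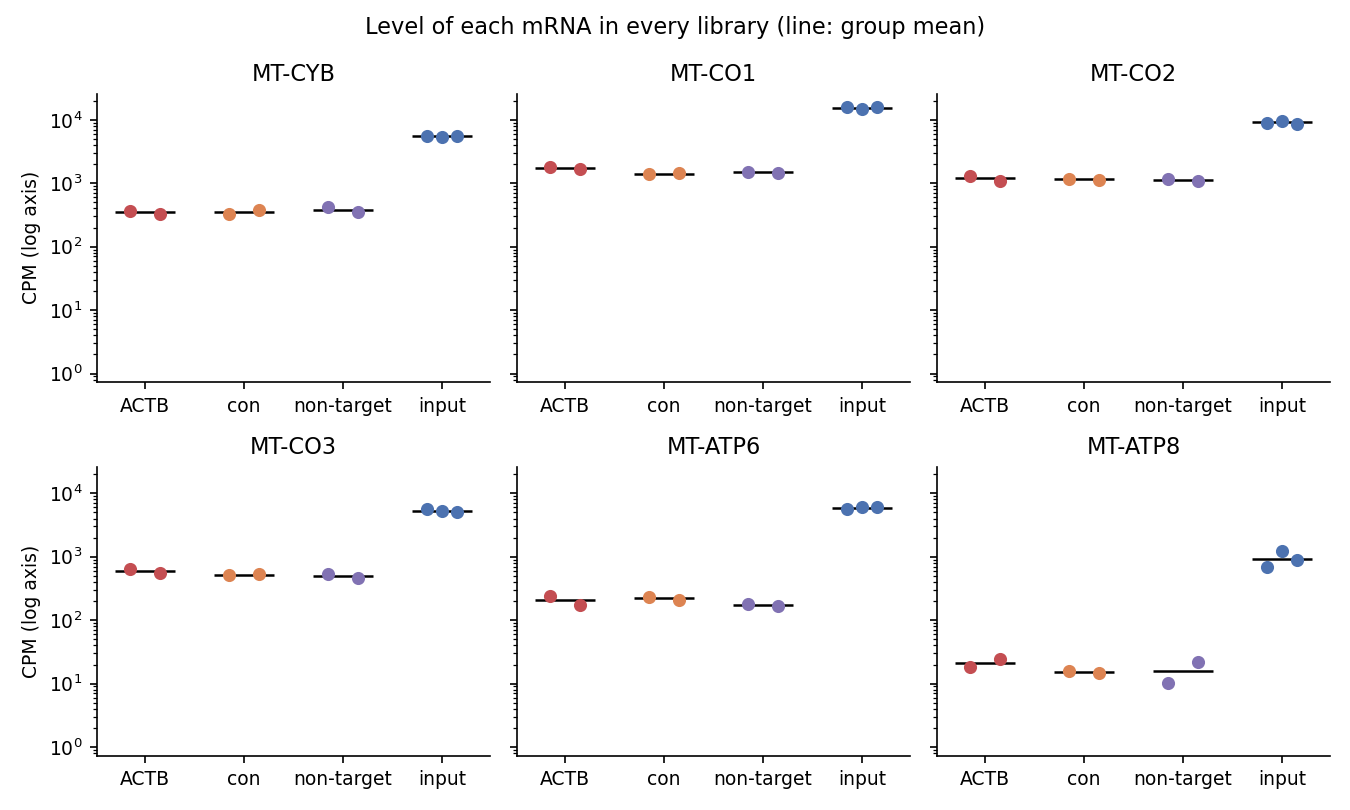
Level of each of the 6 mRNAs in every library, in CPM on a log axis, for the ACTB, con and non-target sgRNA libraries and for input; points are libraries and lines are group means. In each panel all 6 sgRNA points lie below all 3 input points, and the gap is widest for MT-ATP8, with 10.2 to 24.0 CPM in sgRNA libraries and 691 to 1227 CPM in input.

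The 3 complex IV mRNAs encode the catalytic core of cytochrome c oxidase. MT-CO1, whose product holds the heme-copper centre where oxygen is reduced, stood at 1405, 1485 and 1792 CPM (lowest, median and highest) in the FHY1-M3 libraries, against 16140, 14646 and 16086 CPM in input. MT-CO2, whose product takes up electrons from cytochrome c, stood at 1076, 1131 and 1291 CPM in the FHY1-M3 libraries, against 8956, 9751 and 8519 CPM in input. MT-CO3, whose product is the third core subunit, stood at 462, 541 and 646 CPM in the FHY1-M3 libraries, against 5600, 5235 and 5118 CPM in input. These 3 mRNAs had the smallest falls of all 13 mitochondrial mRNAs. The log2 fold change was -3.34 for MT-CO1 (SE 0.0433, 95% interval -3.43 to -3.25, adjusted p = 1.68e-38 by edgeR's quasi-likelihood test). It was -3.30 for MT-CO3 (SE 0.0649, interval -3.43 to -3.17, adjusted p = 1.49e-32 by edgeR) and -2.98 for MT-CO2 (SE 0.0539, interval -3.09 to -2.87, adjusted p = 8.28e-34 by edgeR).

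Both complex V genes, which share an mRNA, fell further. MT-ATP6 encodes subunit a, which forms the proton path of ATP synthase, and stood at 170, 196 and 242 CPM (lowest, median and highest) in the FHY1-M3 libraries, against 5661, 6163 and 5994 CPM in input. Its log2 fold change was -4.89 (SE 0.0741, interval -5.04 to -4.74, adjusted p = 2.50e-36 by edgeR), a 29.6-fold lower level. MT-ATP8 encodes a small membrane subunit of the same enzyme and stood at 10.2, 16.8 and 24.0 CPM in the FHY1-M3 libraries, against 691, 1227 and 889 CPM in input. With 38 to 83 counts per FHY1-M3 library it was the least precisely measured of the 6, and its log2 fold change of -5.79 (SE 0.167, interval -6.13 to -5.45, adjusted p = 9.64e-27 by edgeR) was the largest fall among the 13 mitochondrial mRNAs.

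MT-CYB encodes cytochrome b, the only mitochondrially encoded subunit of complex III. It stood at 326, 361 and 417 CPM (lowest, median and highest) in the FHY1-M3 libraries, against 5583, 5284 and 5534 CPM in input. The log2 fold change was -3.92 (SE 0.0665, interval -4.05 to -3.78, adjusted p = 9.36e-35 by edgeR), a 15.1-fold lower level, and placed MT-CYB between the complex IV and the complex V mRNAs. The 7 complex I mRNAs (MT-ND genes) of the same genome also all fell. Their log2 fold changes ran from -5.06 to -3.51, around a median of -4.75. Of all genes called lower, 153 had a log2 fold change at or below that of MT-CO2, and 13 of these were the mitochondrial mRNAs. The 153 include genes that passed the low-count filter only with the input libraries, such as HIST1H2AB (log2 fold change -5.51). The direction of such genes was set by the filter, while the 13 mitochondrial mRNAs passed in both fits. Across the 13 mRNAs the log2 fold change had a Pearson r of 0.303 and a Spearman rho of 0.374 with gene length, given as a description over genes that share the same libraries. With the log2 input CPM per kilobase of gene, r was 0.356 and rho was 0.615. The input level also enters the fold change itself, so the 2 values are not independent.

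The fall was present with each guide, in comparisons that share the input libraries. With the ACTB sgRNA, 6 of 6 mRNAs were called lower, where 11.0% of genes were called and 3.97% were called lower. The log2 fold changes with this guide ran from -5.49 for MT-ATP8 to -2.92 for MT-CO2. With the con sgRNA, 6 of 6 were called lower, where 11.4% of genes were called and 4.22% were called lower. They ran from -5.97 for MT-ATP8 to -2.98 for MT-CO2. With the non-target sgRNA, 6 of 6 were called lower, where 12.7% of genes were called and 4.57% were called lower, and the values ran from -5.92 for MT-ATP8 to -3.03 for MT-CO2. With all 3 guides MT-ATP8 and MT-ATP6 were the 2 deepest falls among the 6 and MT-CYB came next.

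**Figure D2:**
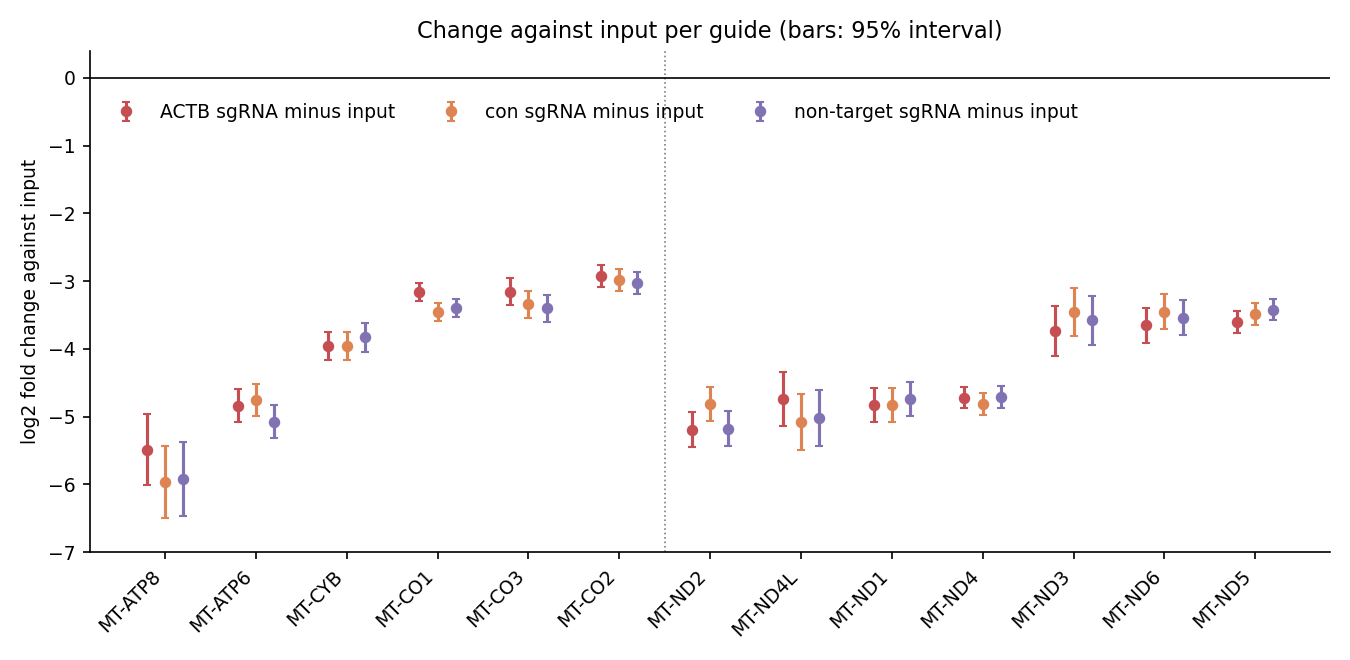
Log2 fold change against input for each guide, with the 95% interval as a bar, for the 6 mRNAs of complexes III to V (left of the dotted line) and the 7 complex I mRNAs (right). All points lie below -2.9; MT-CO2 sits highest and MT-ATP8 lowest with each guide, and the guides share the input libraries.

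Because all 13 mitochondrial mRNAs were lower, the make-up of the mitochondrial counts was compared separately, as the share of each mRNA in the counts of the 13 in a library. The complex IV mRNAs took a larger share in the FHY1-M3 libraries and the complex V mRNAs a smaller one. MT-CO1 took 26.5% ± 1.93 in FHY1-M3 libraries and 19.8% ± 1.47 in input (SD, n = 6 and n = 3). MT-CO2 took 19.7% ± 0.698 in FHY1-M3 libraries and 11.5% ± 0.527 in input. MT-CO3 took 9.26% ± 0.650 in FHY1-M3 libraries and 6.74% ± 0.312 in input. For each of these 3 the lowest FHY1-M3 library lay above the highest input library. MT-ATP6 took 3.45% ± 0.456 in FHY1-M3 libraries and 7.53% ± 0.323 in input, and MT-ATP8 took 0.297% ± 0.0892 in FHY1-M3 libraries and 1.18% ± 0.324 in input, again without overlap. MT-CYB took 6.22% ± 0.543 in FHY1-M3 libraries and 6.94% ± 0.340 in input, and its ranges overlapped.

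An exact permutation test of the log2 share, two-sided over 6 against 3 libraries, cannot go below p = 0.0238. It gave that smallest value for MT-CO1 (log2 difference 0.42), MT-CO2 (0.78), MT-CO3 (0.46), MT-ATP6 (-1.14) and MT-ATP8 (-2.01), each with an adjusted p of 0.0310 over the 13 mRNAs by the exact test. The same values were reached by MT-ND1 (-1.05), MT-ND2 (-1.30), MT-ND4 (-0.99), MT-ND4L (-1.21) and MT-ND5 (0.25), so they were not particular to complexes IV and V. MT-ND3 (0.16, exact p = 0.333) and MT-ND6 (0.21, exact p = 0.143) did not reach them. For MT-CYB the log2 difference was -0.16, with an exact p of 0.119 and an adjusted p of 0.141. With 1 input library left out, the smallest p that 6 against 2 libraries allow is 0.0714, so the test cannot pass there. Since the shares sum to 100% in a library, a higher share of some mRNAs goes with a lower share of others. The 3 complex IV mRNAs summed to 55.5% ± 2.41 in FHY1-M3 libraries and 38.1% ± 1.17 in input, and the 2 complex V mRNAs summed to 3.75% ± 0.432 in FHY1-M3 libraries and 8.71% ± 0.592 in input. The 7 complex I mRNAs made up the rest beside MT-CYB, with 34.5% ± 2.27 in FHY1-M3 libraries and 46.3% ± 1.18 in input.

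**Figure D3:**
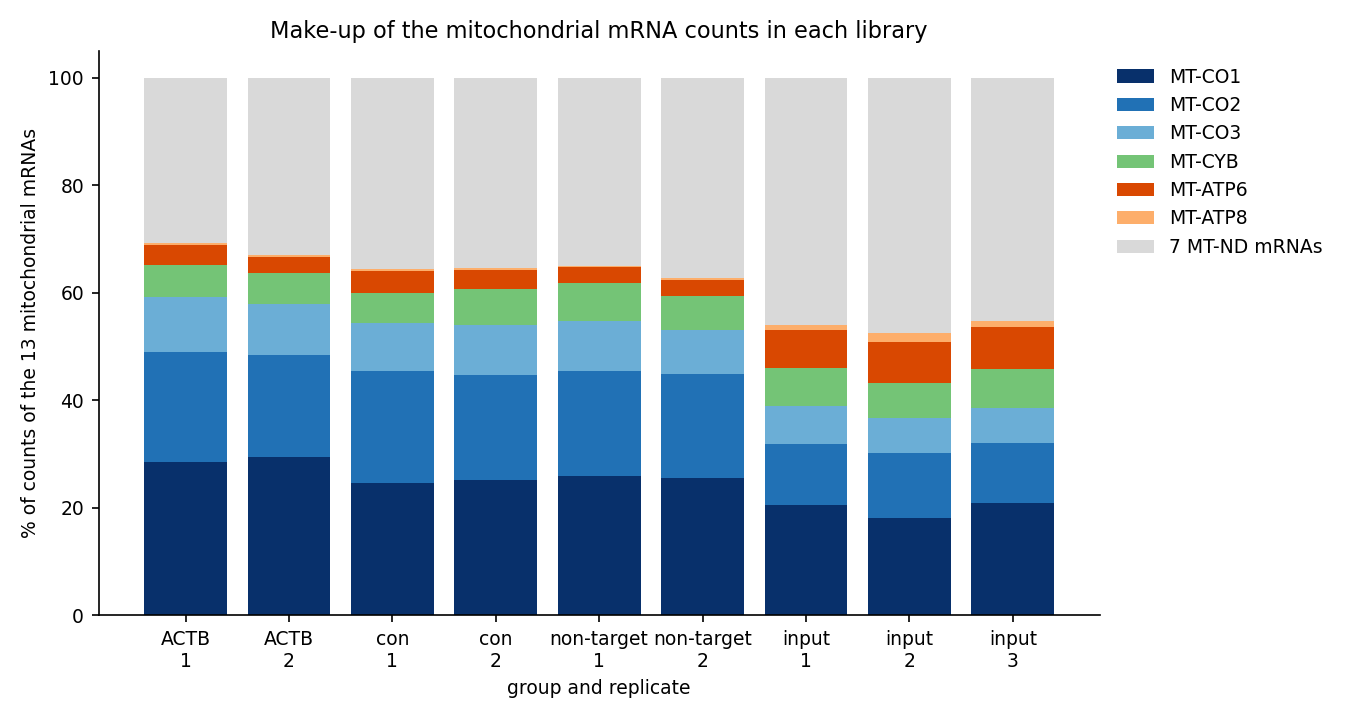
Share of each mRNA in the counts of the 13 mitochondrial mRNAs, in percent, as a stacked bar for every library, with the 7 complex I mRNAs in grey. The blue complex IV blocks reach 53.1% to 59.2% in the 6 sgRNA libraries and 36.7% to 38.9% in the 3 input libraries, and the orange complex V blocks are thinner in the sgRNA libraries.

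Ratios within a library do not depend on the scaling between libraries. MT-CO2 had 5.79 ± 0.590 counts for each MT-ATP6 count in FHY1-M3 libraries (SD, n = 6; range 5.14 to 6.34) and 1.53 ± 0.0929 in input (SD, n = 3; range 1.42 to 1.58). The genes of these 2 mRNAs are of nearly equal length, 684 bases for MT-CO2 and 681 for MT-ATP6. The ratio of MT-CYB to MT-CO1 was 0.236 ± 0.0303 in FHY1-M3 libraries and 0.350 ± 0.00919 in input, and that of MT-CO1 to MT-CO2 was 1.35 ± 0.118 in FHY1-M3 libraries and 1.73 ± 0.203 in input. The ratio of MT-ATP6 to MT-ATP8, which share an mRNA, was 12.6 ± 4.19 in FHY1-M3 libraries (7.23 to 17.8) and 6.65 ± 1.59 in input (5.02 to 8.19), and the ranges overlapped. Ratios are given without a test.

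Per kilobase of gene, the order of levels in the FHY1-M3 libraries was MT-CO2 (1684 CPM per kb), MT-CO1 (1005), MT-CO3 (690), MT-CYB (318), MT-ATP6 (296) and MT-ATP8 (83.5). Neighbours in this order did not overlap between libraries except MT-CYB and MT-ATP6, which stood in this order in 4 of 6 libraries. In input the order was MT-CO2 (13268 CPM per kb), MT-CO1 (10132), MT-ATP6 (8721), MT-CO3 (6783), MT-CYB (4791) and MT-ATP8 (4520). Here MT-CYB and MT-ATP8 overlapped, in this order in 2 of 3 libraries. The orders therefore differ in the place of MT-ATP6, which ranked above MT-CO3 in 3 of 3 input libraries and below it in 6 of 6 FHY1-M3 libraries.

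Guides were compared with each other in a fit of the 6 sgRNA libraries. MT-CO1 was called in comparisons with the ACTB sgRNA, with a level of 1792 and 1701 CPM in the ACTB sgRNA libraries, 1405 and 1442 CPM in the con sgRNA libraries, and 1528 and 1427 CPM in the non-target sgRNA libraries. Both ACTB sgRNA libraries lay above all 4 others, and the share of all genes with such an order was not counted. The log2 fold change of MT-CO1 was 0.25 for ACTB against non-target sgRNA (SE 0.0563, interval 0.13 to 0.36, adjusted p = 0.0335 by edgeR). It was 0.30 for ACTB against con sgRNA (SE 0.0563, interval 0.19 to 0.41, adjusted p = 0.0132 by edgeR). In the first of these comparisons 0.250% of 12808 genes were called (0.0547% higher) and 1 of 6 mRNAs, and in the second 0.0312% of genes (0.0156% higher) and 1 of 6 mRNAs. The 2 comparisons share the ACTB sgRNA libraries. Neither call held when all 9 libraries were fitted together (adjusted p = 0.285 and 0.488 by edgeR). The call against non-target sgRNA was lost without ACTB replicate 1 (adjusted p = 0.408 by edgeR), ACTB replicate 2 (0.0867) or non-target replicate 2 (0.233). The call against con sgRNA was lost without ACTB replicate 1 (adjusted p = 0.612 by edgeR), ACTB replicate 2 (0.102), con replicate 1 (0.182) or con replicate 2 (0.159). The MT-CO1 share of the 13 mitochondrial mRNAs was 28.5% and 29.4% in the ACTB sgRNA libraries, 24.6% and 25.2% in the con sgRNA libraries, and 26.0% and 25.6% in the non-target sgRNA libraries.

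The other mRNAs were not called between guides. MT-CO3 stood at 646 and 547 CPM in the ACTB sgRNA libraries and 544 and 462 CPM in the non-target sgRNA libraries, a log2 fold change of 0.25 (interval 0.05 to 0.45, adjusted p = 0.532 by edgeR). Against con sgRNA, at 509 and 538 CPM, the log2 fold change of MT-CO3 was 0.19 (interval -0.01 to 0.39). MT-CO2 stood at 1291 and 1100 CPM in the ACTB sgRNA libraries and 1148 and 1076 CPM in the non-target sgRNA libraries, a log2 fold change of 0.11 (interval -0.03 to 0.25). MT-CYB stood at 371 and 333 CPM in the ACTB sgRNA libraries and 417 and 350 CPM in the non-target sgRNA libraries, a log2 fold change of -0.12 (interval -0.36 to 0.12). For MT-ATP8 the interval for ACTB against non-target sgRNA ran from -0.67 to 1.49, so changes of that size were not detectable at its depth.

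Between con and non-target sgRNA 0 of 6 mRNAs were called by edgeR, where 0.172% of genes were called. By DESeq2 the count was also 0. By edgeR 1 of 6 had an unadjusted p under 0.05, where 5.25% of all genes did. That mRNA was MT-ATP6, with 230 and 210 CPM in the con sgRNA libraries and 182 and 170 CPM in the non-target sgRNA libraries. Its log2 fold change was 0.32 (SE 0.160, adjusted p = 0.932 by edgeR). The groups did not overlap, but an exact permutation test of 2 against 2 libraries cannot go below p = 0.333. How many of all genes separate likewise was not counted. The log2 fold change of MT-CO1 in this comparison was -0.05 (interval -0.17 to 0.06).

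**Figure D4:**
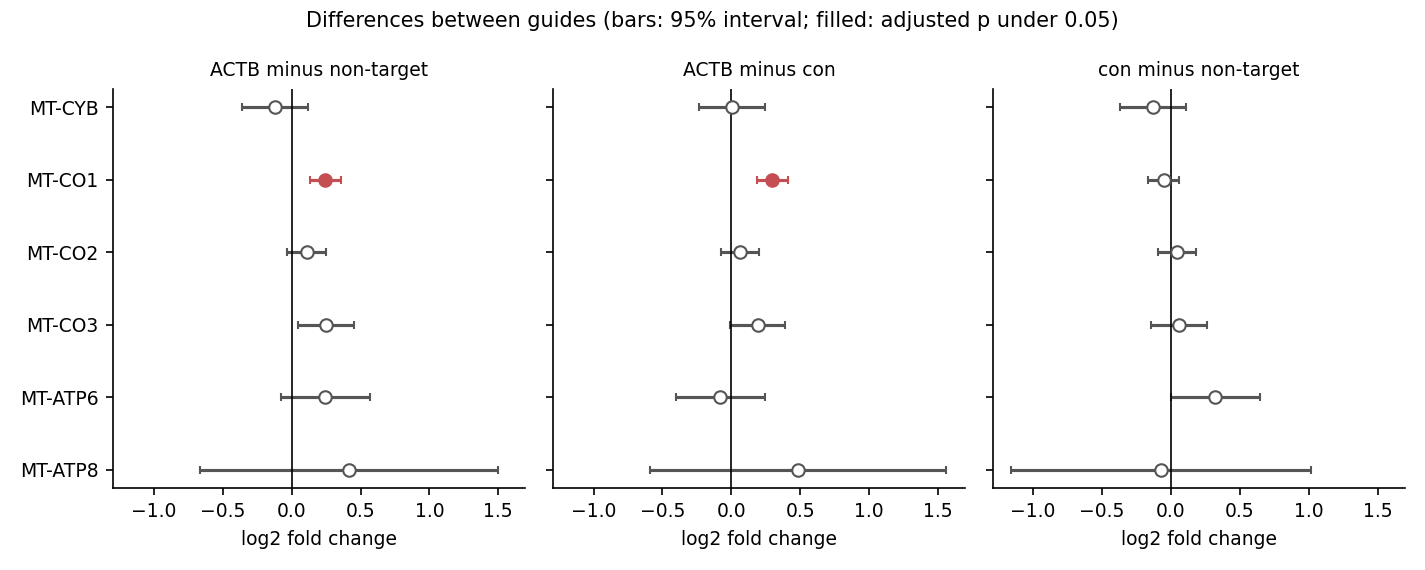
Log2 fold change of each of the 6 mRNAs between guides, with the 95% interval as a bar, for ACTB minus non-target, ACTB minus con and con minus non-target sgRNA; filled points have an adjusted p under 0.05. The filled points are MT-CO1 at 0.25 and 0.30, and MT-ATP8 has the widest intervals.

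The nuclear-encoded subunits of complexes III to V had smaller log2 fold changes against input than the 6 mitochondrial mRNAs. Of 9 nuclear complex III subunits tested, 0 were called by edgeR, and 1 was called lower by DESeq2, with a median log2 fold change of -0.07. By edgeR 3 of the 9 had an unadjusted p under 0.05 (1 higher and 2 lower), where 31.9% of all genes did. Of 11 nuclear complex IV subunits, 6 fell and 0 rose, with a median of -0.78. COX8A, a small subunit of the oxidase, had 24.6 ± 9.71 CPM in FHY1-M3 libraries and 86.9 ± 13.8 CPM in input (SD, n = 6 and n = 3), a log2 fold change of -1.90 (SE 0.321, adjusted p = 3.09e-05 by edgeR). COX5A fell by 1.15 on the log2 scale, COX7C by 0.87 and COX7A2 by 0.83. Of 18 nuclear complex V subunits, 2 fell and 0 rose, with a median of -0.43, and ATP5MC2, which encodes the c subunit of the rotor, had a log2 fold change of -0.84 (SE 0.157, adjusted p = 0.000141 by edgeR). These counts stand beside the 8.60% of all genes called lower and the 11.4% called higher.

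Counts of the mitochondrial mRNAs were also set against the summed counts of the nuclear subunits of the same complex in each library. For complex IV the ratio was 3.13 ± 0.224 in FHY1-M3 libraries and 21.1 ± 1.50 in input (SD, n = 6 and n = 3). For complex V it was 0.0989 ± 0.0154 in FHY1-M3 libraries and 2.59 ± 0.127 in input. For complex III it was 0.364 ± 0.0338 in FHY1-M3 libraries and 5.60 ± 1.12 in input. In none of the 3 complexes did the libraries overlap. How often ratios of other gene sets separate in this way was not counted.

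**Figure D5:**
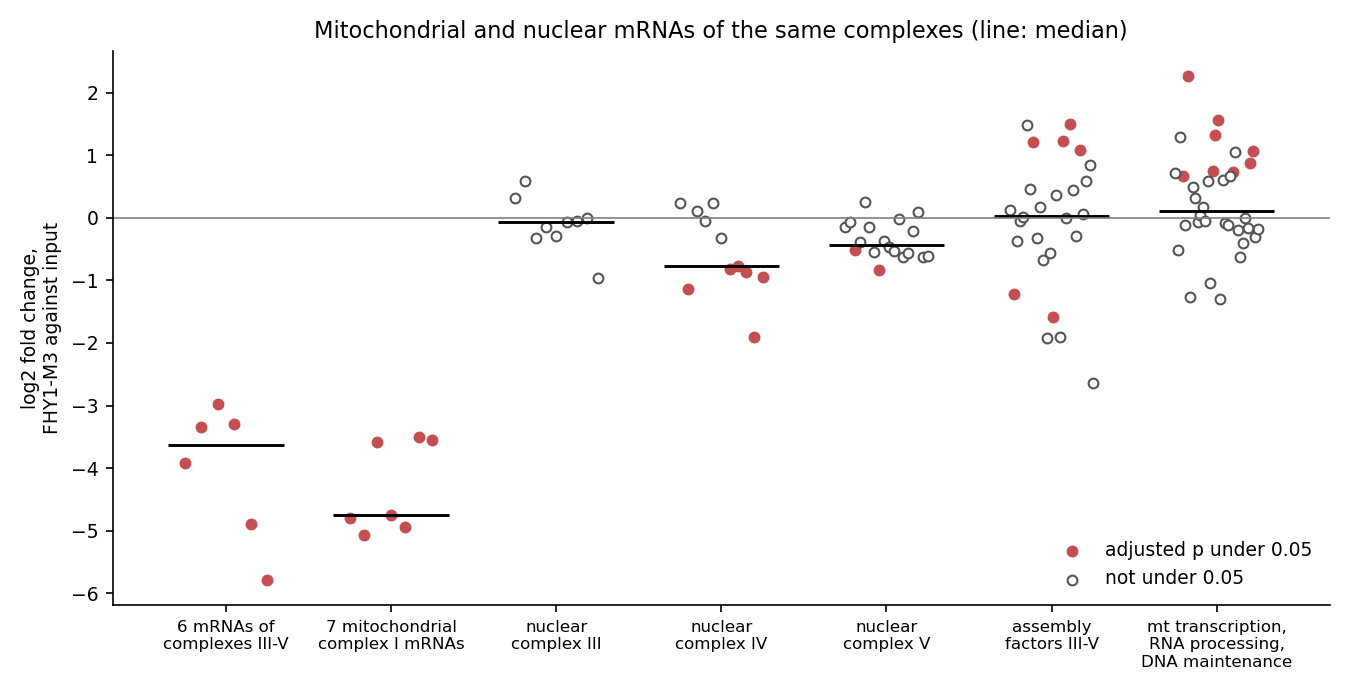
Log2 fold change, FHY1-M3 against input, of the 6 mRNAs of complexes III to V, the 7 mitochondrial complex I mRNAs and the nuclear genes of the same pathway; points are genes, filled where the adjusted p is under 0.05, and lines are list medians. The mitochondrial lists lie near -3.63 and -4.75, and the medians of the nuclear lists lie between -0.78 and 0.11.

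Of 26 assembly factors of complexes III to V tested (of 28), 4 rose and 2 fell, where 11.4% of all genes rose and 8.60% fell, so the counts are near the share over all genes. The median of the list was 0.03 on the log2 scale, and its sign turned with median-ratio size factors, to -0.05. COX16 passed the low-count filter only with the input libraries. Among the 25 that also passed in the sgRNA libraries alone, 4 rose and 2 fell, with a median of 0.06. COA6 and COA3, both needed for complex IV assembly, rose by log2 fold changes of 1.50 and 1.23. Their levels in the shallow input libraries were low, at 12.1 ± 7.84 and 20.4 ± 12.7 CPM. COX18, which inserts part of the MT-CO2 product into the membrane, fell by 1.58 on the log2 scale, and LYRM7, a complex III assembly factor, fell by 1.22. Of 34 genes for mitochondrial transcription, RNA processing and DNA maintenance, 8 rose and 0 fell, beside the same 11.4% and 8.60% of all genes, with a median of 0.11. MTERF1, a transcription termination factor, had a log2 fold change of 2.27 (SE 0.735, adjusted p = 0.0251 by edgeR). Its level was 21.1 ± 7.39 CPM in FHY1-M3 libraries and 3.91 ± 3.45 CPM in input, near the floor of the shallow input libraries. HSD17B10, a subunit of mitochondrial RNase P, had a log2 fold change of 1.56, with an uneven input level of 26.5 ± 24.1 CPM. The log2 fold change was 1.07 for POLG, the mitochondrial DNA polymerase, and 0.87 for TWNK, the replicative helicase. Of these, POLG and TWNK act in replication of mitochondrial DNA and not in its transcription. In the comparisons between guides 0 genes of these 5 nuclear lists were called by edgeR or DESeq2.

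Genes outside the mitochondrial genome were ranked by distance to the mean of the 6 mRNAs, in centred log2 CPM over the 9 libraries. The ranking covered 11622 genes with a mean of at least 5 CPM. These mRNAs differ mostly between FHY1-M3 and input libraries, so the distance mainly finds genes with a similar fold change against input. The nearest were HIST1H2AI (distance 1.12), EIF4A1 (1.18), HIST2H2BE (1.28), FTH1 (1.28) and HIST1H2BC (1.33), with log2 fold changes from -3.97 to -3.14. The 6 mRNAs themselves lay at 0.461 (MT-CYB) to 2.62 (MT-ATP8) from the mean that they form. EIF4A1 had 45.3 ± 2.71 CPM in FHY1-M3 libraries and an uneven 699 ± 346 CPM in input (SD, n = 6 and n = 3), with inputs from 335 to 1024 CPM. HIST2H2BE, a histone gene, had 59.2 ± 5.39 CPM in FHY1-M3 libraries and 523 ± 22.3 CPM in input (SD, n = 6 and n = 3). FTH1, which encodes the ferritin heavy chain, had 77.8 ± 14.2 CPM in FHY1-M3 libraries and 722 ± 43.7 CPM in input. Replication-dependent histone genes, whose mRNAs have no poly(A) tail, took 0.139% ± 0.00594 of all counts in FHY1-M3 libraries and 0.887% ± 0.0780 in input, and 43 of 71 were tested, of which 37 fell and 0 rose, where 8.60% of all genes were called lower. Among the 40 that also passed the low-count filter in the sgRNA libraries alone, 36 fell. Their part in the result on the mitochondrial mRNAs was not tested. Of the nuclear paralogs of the mitochondrial 16S rRNA gene (MTRNR2L), 2 passed the filter in the sgRNA libraries alone, MTRNR2L12 and MTRNR2L8, with log2 fold changes of -3.42 and -2.81 against input. MTRNR2L1 and MTRNR2L3 passed only with the input libraries, where they were higher, so their direction was set by the filter and is not counted.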

How the data were processed

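The authors deposited raw read counts per gene: the values are whole and sum differently in each library. The build hg38, deepTools, STAR 2.7.10b and cutadapt 4.3 appear, without roles, in the submitters' processing notes. Which program counted reads, with what strand setting and annotation, is not given in the sources used here. Per library, 88.5% to 95.0% of counts of 1 to 20 were even, so both mates appear to have been counted, and precision is lower than the counts imply.

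From these counts, edgeR 4.0.16 in R 4.3.3 gave quasi-likelihood F tests after filtering of low-count genes by group, TMM scaling and Benjamini-Hochberg adjustment over all genes tested: 1 fit of 9 libraries against input, 1 of 6 between guides. DESeq2 1.42.0, other scalings and filters, thinned counts and left-out libraries were alternatives. The code of the fits was tried on simulated counts drawn without the doubling by mates, so the trial does not show how well the fits suit these data. Shares were compared with exact permutation tests (scipy 1.17.1), adjusted over the 13 mitochondrial mRNAs; sums over several mRNAs got no test. Replicates differed by more than sampling noise (chi-square per degree of freedom 1.80 to 5.12 on halved counts).

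Named genes are all 6 mRNAs and, per list, up to 4 called genes of at least 5 CPM with the largest change and no overlap between groups. The members and lists were chosen with earlier results of these data known. Sequences are not used here.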

Additional observations from a re-analysis of the deposited data

Results flagged for a closer look

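MT-CO1 is listed because its level differed between guides in a test of the difference itself. On the log2 scale it was 0.25 higher with the ACTB sgRNA than with the non-target sgRNA (adjusted p = 0.0335 by edgeR over all genes), and 0.30 higher than with the con sgRNA (adjusted p = 0.0132 by edgeR). In both cases 2 of 2 ACTB sgRNA libraries lay above 2 of 2 libraries of the other guide. An exact permutation test of 2 against 2 libraries cannot go below p = 0.333, so such separation alone says little. The share of all genes that separate in this way was not counted. Over 15 alternatives each, the first difference ranged from 0.20 to 0.29 with adjusted p from 0.00405 to 0.408 by edgeR or DESeq2, and 4 alternatives lost the call. The second ranged from 0.26 to 0.34 with adjusted p from 0.000176 to 0.612 by edgeR or DESeq2, and 5 alternatives lost it. Of 12 tests for a library far from the rest of its group, 0 found one. With 2 libraries per guide, no test can tell which of them is the outlying one.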

How the results depend on the processing

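Against input, all 6 mRNAs were called lower under all 19 settings run, with log2 fold changes of -5.99 to -5.54 for MT-ATP8, -5.07 to -4.81 for MT-ATP6, -4.02 to -3.87 for MT-CYB, -3.42 to -3.29 for MT-CO1, -3.39 to -3.25 for MT-CO3 and -3.06 to -2.93 for MT-CO2. Without 1 input library the share tests cannot pass (smallest exact p 0.0714), and over all left-out libraries the log2 share differences ran from 0.36 to 0.46 for MT-CO1, 0.75 to 0.82 for MT-CO2, 0.43 to 0.49 for MT-CO3, -1.18 to -1.10 for MT-ATP6 and -2.21 to -1.81 for MT-ATP8. For ACTB against non-target and against con sgRNA, 0 of 6 mRNAs were called with all 9 libraries fitted, and 0 to 1 with 1 library left out. Uncalled log2 differences changed sign with a library left out. For ACTB against non-target sgRNA they ran from -0.0102 to 0.22 for MT-CO2, -0.0156 to 0.47 for MT-ATP6, -0.24 to 0.0099 for MT-CYB and -0.0352 to 1.04 for MT-ATP8. For ACTB against con sgRNA they ran from -0.10 to 0.11 for MT-CYB, -0.0587 to 0.17 for MT-CO2 and -0.34 to 0.14 for MT-ATP6. For con against non-target sgRNA they ran from -0.25 to 0.0056 for MT-CYB, -0.0543 to 0.18 for MT-CO3 and -0.52 to 0.56 for MT-ATP8. With library size alone 1 nuclear complex III subunit rose and 1 complex V subunit fell; by DESeq2 1 complex III subunit fell. The cause of these changes was not tested.

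Genes called among all tested moved by over 1.5 times as follows. ACTB against non-target sgRNA gave 32, but 66 by DESeq2, 16 with all 9 libraries, 21 at a mean of at least 10 CPM and 18 to 35 with a library left out. ACTB against con sgRNA gave 4, but 7 with no low-count filter, 0 with all 9 libraries (494 at an unadjusted p under 0.05 in the 6-library fit; 5 by DESeq2) and 0 to 3 with a library left out. Con against non-target sgRNA gave 22, but 38 by DESeq2, 12 at a mean of at least 10 CPM and 10 to 27 with a library left out. Against input, the ACTB, con and non-target sgRNA counts of 1477, 1534 and 1699 became 898, 975 and 1106 with thinned sgRNA libraries, 770, 913 and 812 with the compared groups alone, and at lowest 630, 608 and 735 with a library left out, each time a library of the guide itself.

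No pairing by replicate number was visible, with correlations of same-numbered deviations from -0.0174 to 0.0132 over 10489 genes. With so few and partly shallow libraries, this cannot show that none were made in pairs, and the labels do not say. With a replicate block, MT-CO1 differed by 0.25 (adjusted p = 0.0188 by edgeR) and 0.30 (0.00557) for ACTB against non-target and con sgRNA. No call changed with the block, and MT-ATP8 for con against non-target sgRNA turned to 0.0054. In the fits against input, input replicate 3 drops out under the block.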
